A study of Mus musculus with 7 samples.

Results

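The hepcidin genes Hamp and Hamp2 and 8 genes of iron regulation, Bmp6, Hfe, Tfr2, Tmprss6, Slc40a1, Tfrc, Trf and Alas2, were examined in the livers of Trpm6-deficient and control mice. The 10 genes were chosen by name, as hepcidin genes or for roles in iron balance, with earlier results of these data known. Each of them was read by 1 probe set among the 35556 on the array, which carries 19938 distinct gene symbols on probe sets with a single symbol. The liver of each of 7 male C57BL/6 littermates (left lobe) was hybridised to 1 Affymetrix Mouse Gene 1.0 ST array, and expression is given as log2 values, so that a difference of 1 is a doubling.

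The 4 control mice carried a floxed Trpm6 allele next to a wildtype allele (Trpm6 fl/+). The 3 Trpm6-deficient mice (Trpm6 Δ17/Δ17;Sox2-Cre) lacked exon 17 of the channel kinase gene Trpm6. By the paper's breeding scheme the paternal allele was inherited already deleted. The maternal floxed allele was deleted by a Cre recombinase that acts in the embryo proper from before gastrulation. The deletion is therefore not specific to the liver, and no stated control carried Sox2-Cre without the deletion. Control 1, control 2 and Trpm6-deficient 2 were 12 weeks old, and control 3, control 4, Trpm6-deficient 1 and Trpm6-deficient 3 were 13 weeks old.

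The probe set of Trpm6 read 5.53, 5.51, 5.50 and 5.50 in the control livers and 5.50, 5.37 and 5.50 in the Trpm6-deficient livers, below the array medians of 6.43 to 6.48 (log2 change -0.05 ± 0.05 SE, FDR = 0.882). FDR, the false discovery rate, stands here for the p-value of limma adjusted after Benjamini and Hochberg across all probe sets, and a nominal p for the same value before adjustment; SE is the standard error of limma. Which exons the Trpm6 probe set reads was not examined, so it does not check the genotype labels. All 7 arrays correlated with each other at 0.984 to 0.991, and no pair was identical. Hepatocyte markers had summed linear signals of 130400 to 144300 in control and 137900 to 143300 in Trpm6-deficient livers, with Alb, the albumin gene, at 14.31 to 14.43 on all arrays.

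Hepcidin is a small peptide hormone secreted by hepatocytes. It binds ferroportin, the cellular iron exporter encoded by Slc40a1, and causes its removal from the surface of enterocytes and macrophages, which lowers the entry of iron into plasma. Its transcription rises with body iron, through bone morphogenetic proteins released by sinusoidal endothelial cells and through the transferrin sensing proteins Hfe and Tfr2, rises with inflammation through interleukin 6 and Stat3, and falls when erythropoiesis demands iron. Mice have a pair of hepcidin genes, Hamp and Hamp2, whereas humans have a single one. Whether the product of Hamp2 shares this hormone action was not examined, so a change of Hamp2 is not read here as a change of the iron hormone.

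Hamp and Hamp2 lie beside each other on chromosome 7, with 1 annotated gene, the pseudogene Usf2-ps1, between them. The 250 bases before each start site are shown because both genes descend from a common copy. Whether these sequences bear on the expression values was not tested. They are given 5′ to 3′ on the transcribed strand from the RefSeq annotation of GRCm38.p6 (Hamp at chr7:30944030-30944279, minus strand, and Hamp2 at chr7:30924182-30924431, minus strand). Capitals mark 3 short motifs: GGCGCC, the core of the BMP response element, TTCNNNGAA, the form of a STAT site, and AGATAA, the form of a GATA site, each searched on both strands.
Hamp: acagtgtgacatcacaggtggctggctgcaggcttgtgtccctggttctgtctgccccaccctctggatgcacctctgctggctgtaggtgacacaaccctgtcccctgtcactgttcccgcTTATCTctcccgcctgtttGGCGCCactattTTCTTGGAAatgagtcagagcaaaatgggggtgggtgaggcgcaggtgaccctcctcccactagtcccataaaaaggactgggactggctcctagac
Hamp2: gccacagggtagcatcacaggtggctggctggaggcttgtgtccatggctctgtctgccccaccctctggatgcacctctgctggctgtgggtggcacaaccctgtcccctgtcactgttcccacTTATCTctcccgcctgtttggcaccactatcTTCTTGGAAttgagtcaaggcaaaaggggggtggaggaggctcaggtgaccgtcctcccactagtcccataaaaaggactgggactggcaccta

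The windows were identical at 227 of 247 aligned positions (91.9%), with 20 substitutions and no internal gap. Both held TTCTTGGAA, at positions 154 to 162 of the Hamp window and 157 to 165 of the Hamp2 window, counted from 1 at the 5′ end. Both also held TTATCT, the reverse complement of AGATAA, at positions 123 to 128 and 126 to 131. GGCGCC stood at positions 142 to 147 of the Hamp window, 109 to 104 bases before the start site, and was not matched in the Hamp2 window, where the substitution G145A (Hamp base first, position in the Hamp window) falls within it. No motif overlapped another.

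None of these motifs is rare. GGCGCC occurred in 11.9%, TTCNNNGAA in 8.3% and AGATAA in 11.2% of 32851 RefSeq windows of 300 bases around start sites. Windows were available for 7 of the 10 genes. GGCGCC was matched in Hamp and Tfrc, TTCNNNGAA in Hamp and Hamp2, and AGATAA in Alas2, Hamp and Hamp2. A match is a description of the letters and not of binding, which was not measured.

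Among the 10 genes, Hamp2 alone passed limma's test at an FDR of 0.1 or less, the threshold of the study's methods, and it rose about 4-fold in Trpm6-deficient livers. Over all probe sets 0.129% passed (0.0759% higher and 0.0534% lower in Trpm6-deficient livers). The groups did not overlap for Hamp and Hamp2, which were higher, nor for Alas2, which was lower, and these were also the 3 genes at a nominal p of 0.05 or less. The groups did not overlap for 5.33% of all probe sets (2.94% higher, 2.38% lower), and 6.87% had a nominal p of 0.05 or less (3.85% higher, 3.03% lower). The median log2 change of the 10 genes was 0.10, against 0 over all probe sets.

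**Figure D1:**
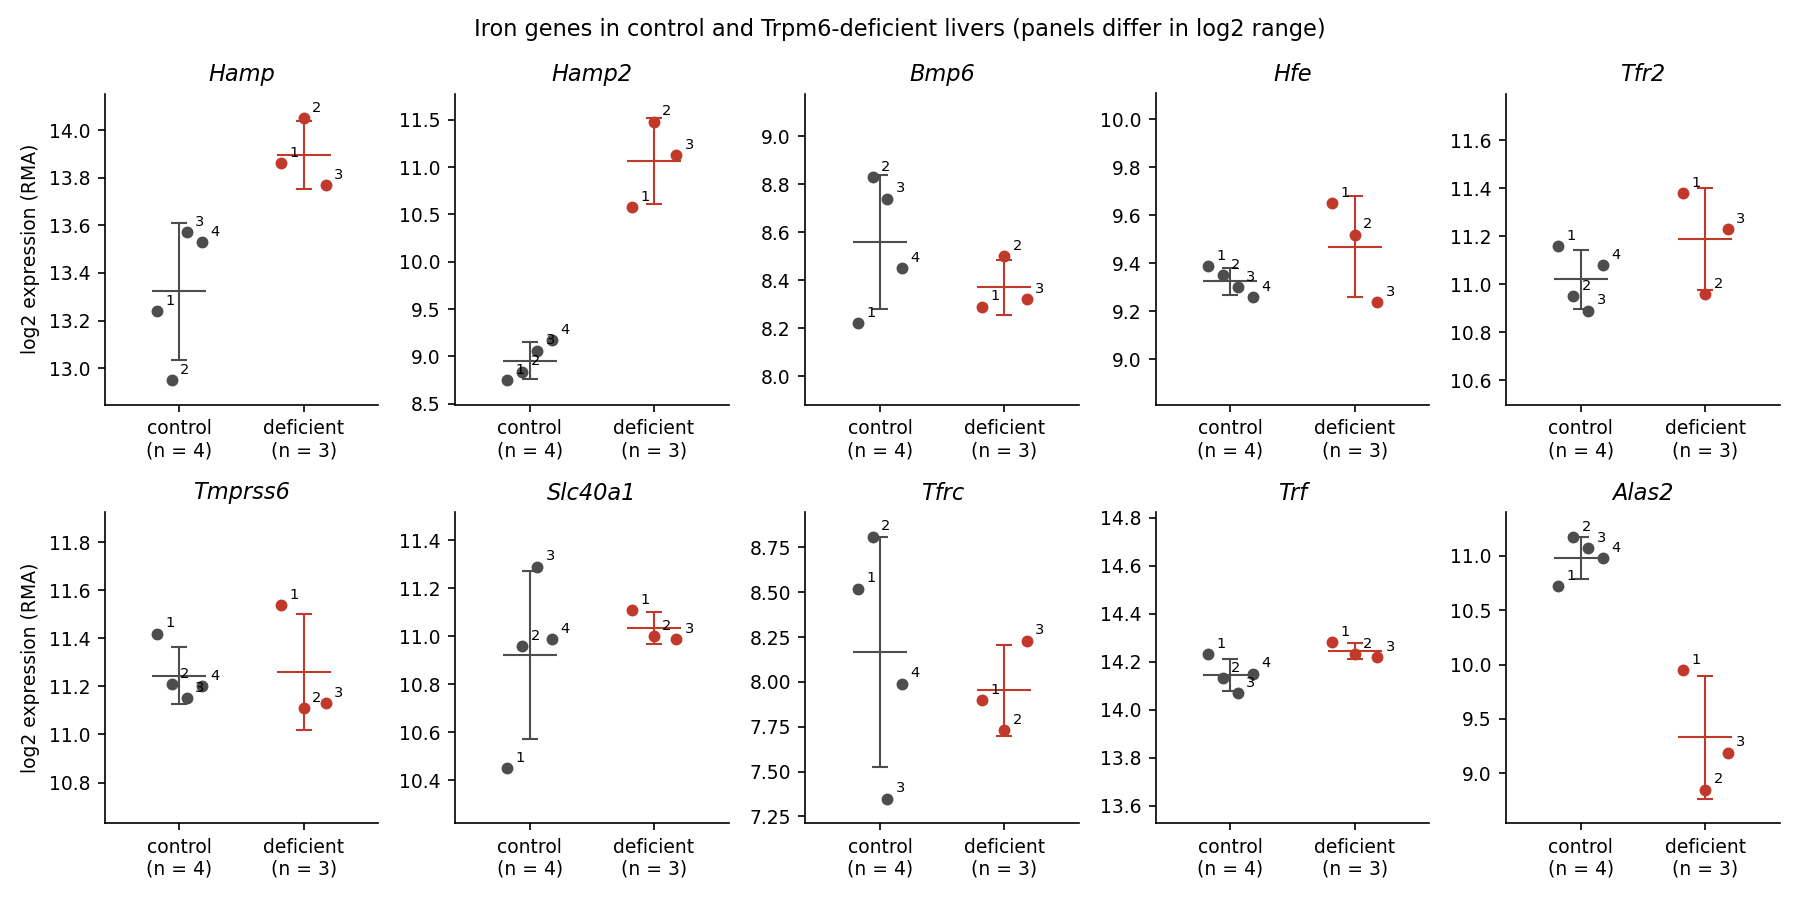
Log2 expression of the 10 iron genes, each liver a point numbered by replicate, the group mean drawn as a line with SD bars (4 control and 3 Trpm6-deficient livers); panels cover different log2 ranges. The groups are apart for Hamp, Hamp2 and Alas2 and overlap for the other 7 genes.

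Hamp2, the second hepcidin gene, had log2 values of 8.75, 8.84, 9.06 and 9.17 in control livers 1 to 4 and of 10.58, 11.48 and 11.13 in Trpm6-deficient livers 1 to 3. Every Trpm6-deficient liver lay above every control liver, with Trpm6-deficient 1 the nearest to the controls. The mean rose from 8.96 ± 0.19 (SD, n = 4) to 11.06 ± 0.45 (SD, n = 3), a log2 change of 2.11 ± 0.22 (SE, 95% confidence interval 1.58 to 2.64) or 4.31-fold, with an FDR of 0.0697 from limma. It stood at rank 22 of all probe sets by p. The FDR was above 0.1 with age as a covariate (0.169) and when control 1 (0.216), control 2 (0.266), control 3 (0.287), control 4 (0.214), Trpm6-deficient 2 (0.172) or Trpm6-deficient 3 (0.283) was left out, and without moderation of the variances (0.315), while the change itself stayed between 1.90 and 2.35 in all 16 alternatives. Without Trpm6-deficient 1 it was 2.35 (FDR = 0.0318).

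Hamp, which encodes the circulating hormone, read 13.24, 12.95, 13.57 and 13.53 in control livers 1 to 4 and 13.86, 14.05 and 13.77 in Trpm6-deficient livers 1 to 3. The groups did not overlap, and the gap between control 3 and Trpm6-deficient 3, the nearest pair, was small beside the range of the controls. The means were 13.32 ± 0.29 (SD, n = 4) and 13.89 ± 0.14 (SD, n = 3), a log2 change of 0.57 ± 0.17 (SE, 95% confidence interval 0.17 to 0.97) that did not pass (FDR = 0.577 from limma). The change lay between 0.45 and 0.65 in all 16 alternatives, none of which passed. These values are close to the highest value of any probe set on the arrays (14.70 to 14.79), and whether the probes were near saturation was not tested.

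The log2 value of Hamp2 minus that of Hamp on the same array was -4.49, -4.11, -4.51 and -4.36 in control and -3.28, -2.57 and -2.64 in Trpm6-deficient livers. All Trpm6-deficient livers lay above all control livers in this difference as well. Its mean was 1.54 higher in Trpm6-deficient livers (two-sided exact permutation p = 0.0286 over 35 assignments, the smallest that 4 against 3 mice allow), a comparison of signals that gives no ratio of transcripts. Earlier results of these data had already listed Hamp2, whose own values separate the groups, so this p is no independent support for a difference between the genes. The Hamp values lie near the top of the arrays, and the part of this in the difference was not tested. As the genes are near-identical copies, binding of one transcript to the probes of the other cannot be told apart from its own signal here, and which probes each set holds was not examined.

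**Figure D2:**
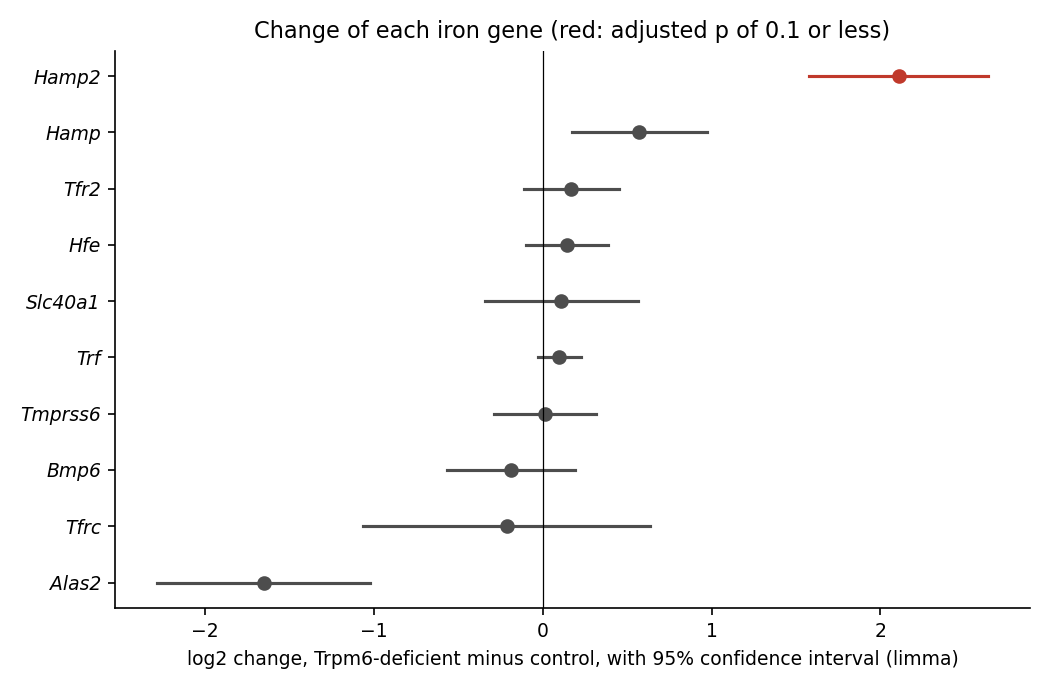
Log2 change of each gene, Trpm6-deficient (n = 3) minus control (n = 4), as a point with its 95% confidence interval from limma; red marks an FDR of 0.1 or less. Hamp2 is the only red gene at 2.11, the intervals of Hamp and Alas2 also lie off 0, and those of the other 7 genes include it.

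Of the genes that set hepcidin transcription, none passed. Some of them are expressed outside hepatocytes, and in bulk tissue fewer cells of a type and less RNA per cell cannot be told apart. Bmp6, the main bone morphogenetic protein of iron sensing, read 8.22, 8.83, 8.74 and 8.45 in control and 8.29, 8.50 and 8.32 in Trpm6-deficient livers. The Trpm6-deficient livers lay within the control range, where control 1 was the lowest. The log2 change was -0.19 ± 0.16 (SE, 95% confidence interval -0.57 to 0.19, FDR = 0.872 from limma), and it was -0.30 without control 1 (FDR = 0.792) and -0.10 without control 2 (FDR = 0.916).

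Hfe, the haemochromatosis protein that conveys the loading of transferrin to the hepcidin gene, read 9.39, 9.35, 9.30 and 9.26 in control and 9.65, 9.52 and 9.24 in Trpm6-deficient livers. Trpm6-deficient 1 and 2 lay above the controls and Trpm6-deficient 3 below them. Its log2 change was 0.145 ± 0.10 (SE, 95% confidence interval -0.10 to 0.39, FDR = 0.851), and it was 0.055 without Trpm6-deficient 1 and 0.26 without Trpm6-deficient 3 (FDR = 0.911 and 0.631). Tfr2, the hepatocyte transferrin receptor that acts as a sensor, read 11.16, 10.95, 10.89 and 11.08 in control and 11.38, 10.96 and 11.23 in Trpm6-deficient livers. Its groups overlapped through Trpm6-deficient 2, and the log2 change was 0.17 ± 0.12 (SE, 95% confidence interval -0.11 to 0.45, FDR = 0.851), with 0.075 without Trpm6-deficient 1 and 0.285 without Trpm6-deficient 2.

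Tmprss6, a hepatocyte protease that cleaves the BMP coreceptor hemojuvelin and so restrains hepcidin, read 11.42, 11.21, 11.15 and 11.20 in control and 11.54, 11.11 and 11.13 in Trpm6-deficient livers. Control 1 and Trpm6-deficient 1 were the high liver of their group, and the groups overlapped. The log2 change of 0.015 ± 0.13 (SE, 95% confidence interval -0.29 to 0.32, FDR = 0.994) had no settled sign across alternatives.

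The genes of iron export, uptake and transport did not pass either. Slc40a1, the ferroportin gene, read 10.45, 10.96, 11.29 and 10.99 in control and 11.11, 11.00 and 10.99 in Trpm6-deficient livers. The Trpm6-deficient livers were close together inside the wide range of the controls, in which control 1 was low and control 3 high. The log2 change was 0.11 ± 0.19 (SE, 95% confidence interval -0.34 to 0.56, FDR = 0.938) and was -0.05 without control 1 and 0.23 without control 3. The action of hepcidin on ferroportin protein is not read by an RNA array.

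Tfrc, the transferrin receptor of cellular iron uptake, whose RNA is stabilised when cells lack iron, varied most of the 10 genes among control livers, at 8.52, 8.81, 7.35 and 7.99, and read 7.90, 7.73 and 8.23 in Trpm6-deficient livers. Both 12-week-old controls were above all other livers. Its log2 change of -0.21 ± 0.35 (SE, 95% confidence interval -1.06 to 0.64, FDR = 0.936) has the widest interval of the 10 genes, so a change of 1 on the log2 scale in the lower direction lies within it. It was 0 without control 2 and -0.49 without control 3. Trf, which encodes transferrin, the plasma iron carrier made by hepatocytes, read 14.23, 14.13, 14.07 and 14.15 in control and 14.28, 14.23 and 14.22 in Trpm6-deficient livers. Its values overlapped at control 1, with a log2 change of 0.10 ± 0.05 (SE, 95% confidence interval -0.03 to 0.22, FDR = 0.816).

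Alas2, the erythroid form of 5-aminolevulinate synthase and the entry enzyme of haem synthesis in red cell precursors, read 10.72, 11.17, 11.07 and 10.98 in control livers 1 to 4 and 9.95, 8.85 and 9.19 in Trpm6-deficient livers 1 to 3. Every Trpm6-deficient liver lay below every control liver, and as for Hamp2 Trpm6-deficient 1 was the nearest to the controls and Trpm6-deficient 2 the farthest. The means were 10.985 ± 0.19 (SD, n = 4) and 9.33 ± 0.56 (SD, n = 3), a log2 change of -1.655 ± 0.26 (SE, 95% confidence interval -2.29 to -1.02) with an FDR of 0.192 from limma, at rank 103 by p. It did not pass, except without Trpm6-deficient 1 (FDR = 0.04995), and the change lay between -2.05 and -1.42 in all 16 alternatives.

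Alas2 is abundant in reticulocytes, so genes of red cells were set beside it. Of 13 measured erythroid genes none passed and none had a nominal p of 0.05 or less, and their median log2 change was -0.02. The beta globin probe set (Hbb-b1 and its near-identical copies) read 13.05 to 13.86 in control and 13.21 to 13.97 in Trpm6-deficient livers, with a log2 change of -0.02 ± 0.25 (SE). The alpha globin probe set had a log2 change of 0.24 ± 0.28 (SE), and Slc4a1, the red cell anion exchanger, -0.01 ± 0.04 (SE). Slc4a1 read 6.82 to 6.93 in control and 6.86 to 6.87 in Trpm6-deficient livers, little above the array medians of 6.43 to 6.48, so its small change says little. The summed linear signal of the list was 15030 to 27620 in control and 17870 to 29400 in Trpm6-deficient livers. The red cell regulator Gata1 was at 5.54 to 5.70 in control and 5.30 to 5.57 in Trpm6-deficient livers, and 6 of the 13 genes were below the median of every array. Alas2 was thus lower in all 3 Trpm6-deficient livers while the ranges of the globins overlapped between the groups.

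**Figure D3:**
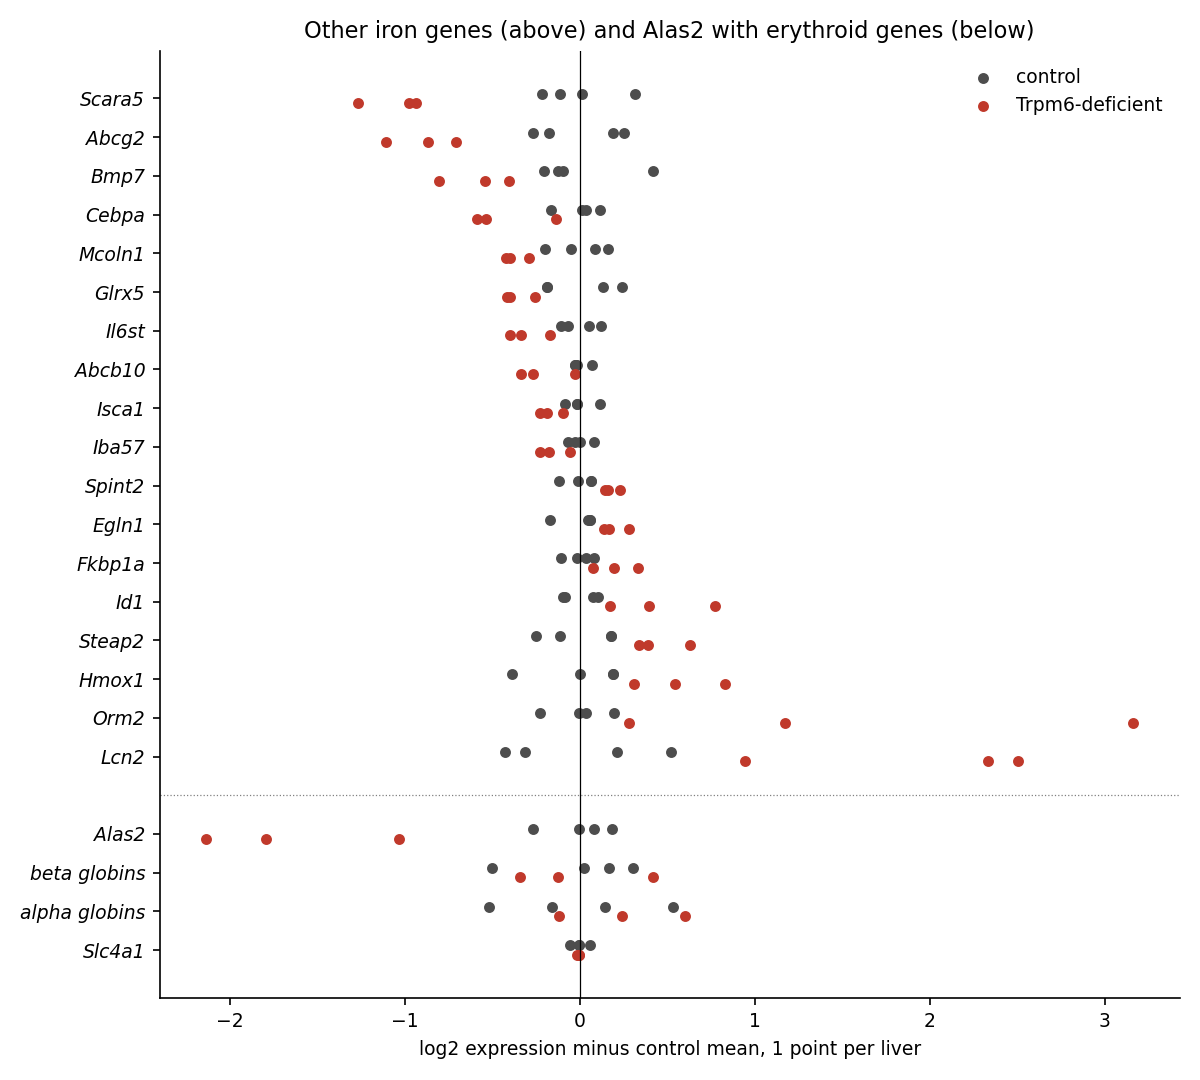
Log2 expression minus the control mean, each liver a point (4 control, 3 Trpm6-deficient). Above the dotted line stand the 18 further iron genes with a nominal p of 0.05 or less, shown because of that p, and below it Alas2 with the globins and Slc4a1. The Trpm6-deficient livers lie 1 or more below the control mean for Alas2 and on both sides of it for the beta and alpha globins.

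The groups held mice of 2 ages, and the changes within each age came from 1 fit of the 4 combinations of group and age (3 residual degrees of freedom, and a single Trpm6-deficient mouse at 12 weeks, which is assumed to vary like the others). For Hamp the log2 change was 0.955 ± 0.14 (SE) at 12 weeks and 0.265 ± 0.12 (SE) at 13 weeks. For Hamp2 it was 2.685 ± 0.25 (SE) and 1.74 ± 0.20 (SE). Alas2 was lower at both ages, by a log2 change of -2.095 ± 0.38 (SE) and -1.455 ± 0.31 (SE).

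Tfrc differed in sign, at -0.935 ± 0.33 (SE) at 12 weeks and 0.395 ± 0.27 (SE) at 13 weeks. The log2 change at 13 weeks minus that at 12 weeks was -0.69 for Hamp, -0.945 for Hamp2, 1.33 for Tfrc and 0.64 for Alas2. No p is given, since 12 weeks held a single Trpm6-deficient mouse, and no difference between the ages is claimed. In all, 6 of the 10 genes had the same sign at both ages, Hamp, Hamp2, Hfe, Bmp6, Trf and Alas2. Since Trpm6-deficient 2 was the only Trpm6-deficient mouse of 12 weeks, its age and the mouse itself cannot be told apart.

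**Figure D4:**
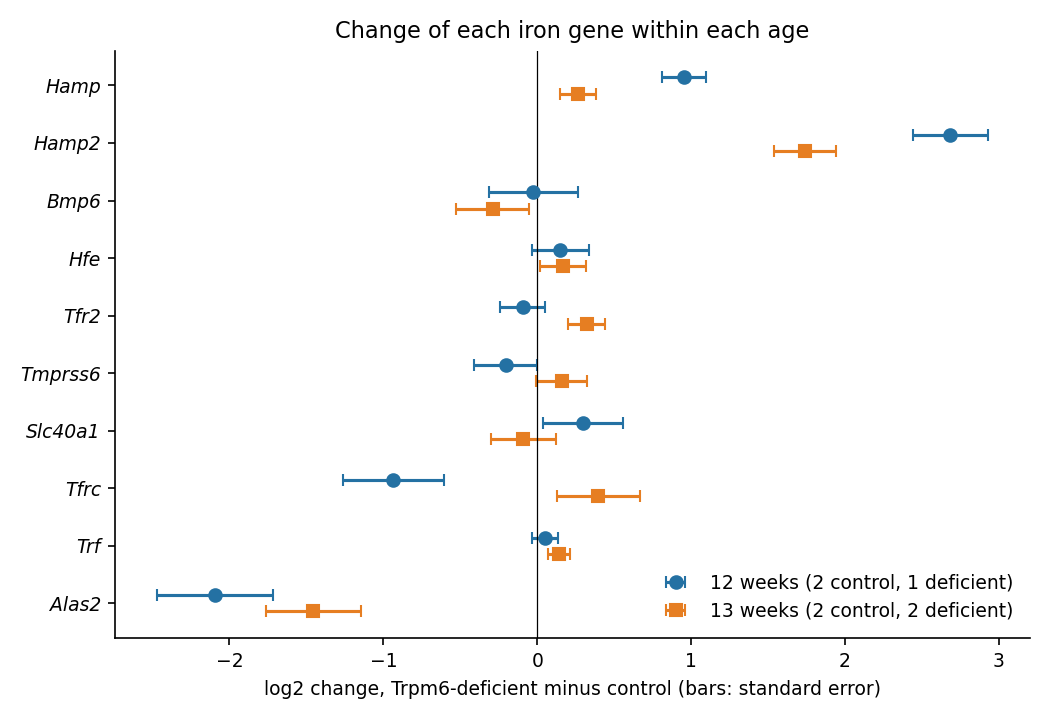
Log2 change, Trpm6-deficient minus control, within 12-week-old (2 control, 1 Trpm6-deficient) and 13-week-old mice (2 and 2), with standard errors from limma. The changes of Hamp, Hamp2 and Alas2 keep their sign at both ages and exceed their standard errors, and Tfrc lies at -0.935 and 0.395. The bars are standard errors and not confidence intervals, so a bar clear of 0 is no test. The nearest to 0 of these changes is that of Hamp at 13 weeks, 0.265 with a standard error of 0.12.

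Wider lists of iron genes showed where the 10 genes stand in their pathways. Of 109 further measured genes in 6 lists none passed at an FDR of 0.1 or less. At a nominal p of 0.05 or less there were 18 (8 higher and 10 lower), which is 16.5% beside the 6.87% of all probe sets. Of all probe sets 3.85% were higher and 3.03% lower at such a p, and the counts of each list below stand beside these shares. The groups did not overlap for 17 of the 109 genes (15.6% beside 5.33%). Their median log2 change was -0.0083, against 0 over all probe sets. The following values are a description of those 18 and of genes of known role.

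In the BMP and SMAD pathway, which carries the iron signal to the hepcidin gene, 3 of 26 genes were higher and 1 was lower at a nominal p of 0.05 or less (median -0.0008). Id1, a direct target of SMAD signalling, read 7.37 to 7.57 in control and 8.24, 7.64 and 7.86 in Trpm6-deficient livers, for a log2 change of 0.45 ± 0.14 (SE, FDR = 0.636 from limma). Its values did not overlap, with Trpm6-deficient 1 the highest, whereas Smad7, another target of the pathway, had a log2 change of -0.13 ± 0.22 (SE). Bmp7, a further ligand of the family, had a log2 change of -0.58 (FDR = 0.590), Spint2, an inhibitor of serine proteases, 0.18 (FDR = 0.647), and Fkbp1a, which holds type I BMP receptors inactive, 0.20 (FDR = 0.696). The endothelial ligand Bmp2 (-0.015), the coreceptor Hjv (0.12), the protease Furin (-0.08) and Erfe, the erythroid suppressor of hepcidin (-0.04), had nominal p-values of 0.284 or more.

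In the interleukin 6 and Stat3 pathway, which carries the inflammatory signal, 2 of 17 genes were higher and 1 was lower (median -0.01). Lcn2, an acute phase protein that binds bacterial siderophores, read 8.59, 7.95, 8.90 and 8.06 in control and 9.32, 10.71 and 10.88 in Trpm6-deficient livers, for a log2 change of 1.93 ± 0.43 (SE, FDR = 0.389 from limma). Orm2, an acute phase glycoprotein, read 12.32 in Trpm6-deficient 3 and 9.44 to 10.33 in the other Trpm6-deficient livers, against 8.93 to 9.35 in control (log2 change 1.54 ± 0.63 SE, FDR = 0.724). The classical acute phase gene Saa1 did not pass, at 5.84 to 8.72 in control and 4.87 to 7.24 in Trpm6-deficient livers (log2 change -0.97 ± 0.81 SE). Il6st, the shared signalling receptor gp130, had a log2 change of -0.30 ± 0.08 (SE, FDR = 0.540), Socs3, a target of Stat3, 0.055 ± 0.06 (SE) and Il6ra, the interleukin 6 receptor, -0.10 ± 0.21 (SE).

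In iron uptake, transport and storage, 1 of 26 genes was higher and 3 were lower (median 0.0063). Scara5, a receptor for ferritin, read 8.11, 7.81, 7.58 and 7.68 in control and 6.86, 6.53 and 6.82 in Trpm6-deficient livers, with no overlap (log2 change -1.06 ± 0.15 SE, FDR = 0.132 from limma). Abcg2, an exporter of porphyrins among other substrates, read 8.92 to 9.44 and 8.08 to 8.48 (log2 change -0.89 ± 0.16 SE, FDR = 0.270). Mcoln1, a lysosomal cation channel, had a log2 change of -0.37 (FDR = 0.481) and Steap2, a metalloreductase, of 0.45 (FDR = 0.589), while its second probe set had -0.02. The ferritin genes stayed within narrow ranges, with log2 changes of 0.04 ± 0.04 (SE) for Fth1 and 0.08 ± 0.05 (SE) for Ftl1. Slc11a2, the divalent metal importer (-0.21), Slc39a14, the hepatocyte importer of unbound iron (0.21), and Cp, the ferroxidase ceruloplasmin (0.11), had FDR values of 0.770, 0.854 and 0.874.

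In iron sensing inside the cell, Cebpa, a hepatocyte transcription factor that acts on the hepcidin gene, had a log2 change of -0.42 ± 0.13 (SE, FDR = 0.603 from limma) and Egln1, the prolyl hydroxylase of the oxygen sensor, of 0.20 ± 0.08 (SE, FDR = 0.693), and the other 10 of 12 genes had a nominal p above 0.05 (median 0.01). The iron regulatory proteins Aco1 and Ireb2, which bind the RNAs of Tfrc and ferritin, had log2 changes of 0.01 and -0.33, and Fbxl5, which removes Ireb2 protein when iron is plentiful, of 0.21, with FDR values of 0.772 or more.

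In haem metabolism, Hmox1, the haem oxygenase that frees iron from haem, read 8.16 to 8.74 in control and 8.86, 9.38 and 9.09 in Trpm6-deficient livers, for a log2 change of 0.56 ± 0.18 (SE, FDR = 0.641 from limma). Abcb10, a mitochondrial transporter of haem synthesis, had a log2 change of -0.21 ± 0.08 (SE, FDR = 0.696), and the other 11 of 13 genes had a nominal p above 0.05 (median 0.0058). Alas1, the form of 5-aminolevulinate synthase used by hepatocytes, had a log2 change of 0.10 ± 0.40 (SE) beside the -1.655 of Alas2, and varied from 10.95 to 12.50 in control livers. Fech, which inserts the iron, had a log2 change of 0.03 ± 0.07 (SE).

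Among 15 genes of iron-sulphur cluster assembly, 3 were lower at a nominal p of 0.05 or less and none was higher (median -0.09). Over all probe sets 3.03% were lower and 3.85% higher at such a p. Glrx5, a mitochondrial glutaredoxin, read 11.33 to 11.76 in control and 11.10 to 11.26 in Trpm6-deficient livers (log2 change -0.36 ± 0.13 SE, FDR = 0.665 from limma). Isca1 and Iba57, which act together late in assembly, had log2 changes of -0.17 (FDR = 0.685) and -0.15 (FDR = 0.718).

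Bmp6 and Slc40a1 are expressed in cells other than hepatocytes, and markers of those cells varied between livers. The mean log2 level of 15 sinusoidal endothelial markers was lowest in control 1 (8.70) and Trpm6-deficient 1 (8.98) and highest in control 2 (9.73). All 15 had a negative log2 change, of -0.48 to -0.015 with a median of -0.15, and none had a nominal p of 0.05 or less. Their summed linear signal was 7556 to 16840 in control and 9138 to 13920 in Trpm6-deficient livers, with Stab2 at a log2 change of -0.02 and Clec4g at -0.275.

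Kupffer cell markers were likewise lowest in control 1 (mean log2 level 8.27) and Trpm6-deficient 1 (8.57), and 12 of 14 had a negative log2 change (median -0.29, summed linear signals 6158 to 12450 in control and 7468 to 8736 in Trpm6-deficient livers). Clec4f, which marks Kupffer cells, had a log2 change of -0.34 ± 0.14 (SE) and Cd5l, a macrophage secreted protein, of -0.305 ± 0.21 (SE). None of the 14 had a nominal p of 0.05 or less with all 7 livers. Without control 1 there were 10, all lower, with a median of -0.51, as were 4 of the 15 endothelial markers (median -0.33). In that setting 6.31% of all probe sets had such a p and 3.13% were lower. Trpm6-deficient 1 was low in the same markers. Without both livers (added after seeing the data) 10 Kupffer cell markers and 1 endothelial marker were lower at such a p. Of all 35556 probe sets 2680 then had such a p in either direction. How many of these were lower was not counted, so the marker counts of this setting have no like share beside them. With all 7 livers, 3 of 10 stellate cell markers had a nominal p of 0.05 or less, all higher, Reln (log2 change 0.30), Des (0.28) and Ecm1 (0.415). None of them passed after adjustment. They were the only such genes among the 62 markers of all cell type lists (4.84%, beside 6.87% of all probe sets). Of 10 hepatocyte markers none had a nominal p of 0.05 or less (median 0.02).

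Across the 7 livers the log2 value of Bmp6 went with the mean of the endothelial markers, at Pearson's r = 0.874 (exact permutation p = 0.0101, 0.0202 after Benjamini-Hochberg adjustment over 2 relations) and Spearman's rho = 0.857 (exact permutation p = 0.0238, 0.0476 after adjustment). Without control 1 and Trpm6-deficient 1, the 2 livers farthest from the median of the markers, r was 0.792 over 5 livers. For Slc40a1 and the Kupffer cell markers r was 0.712 (exact permutation p = 0.0730) and rho 0.306 (exact permutation p = 0.512), and r was -0.75 without control 1 and control 3, so this relation rests on those livers. The part of these cells in the values of Bmp6 and Slc40a1 was not tested further.

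**Figure D5:**
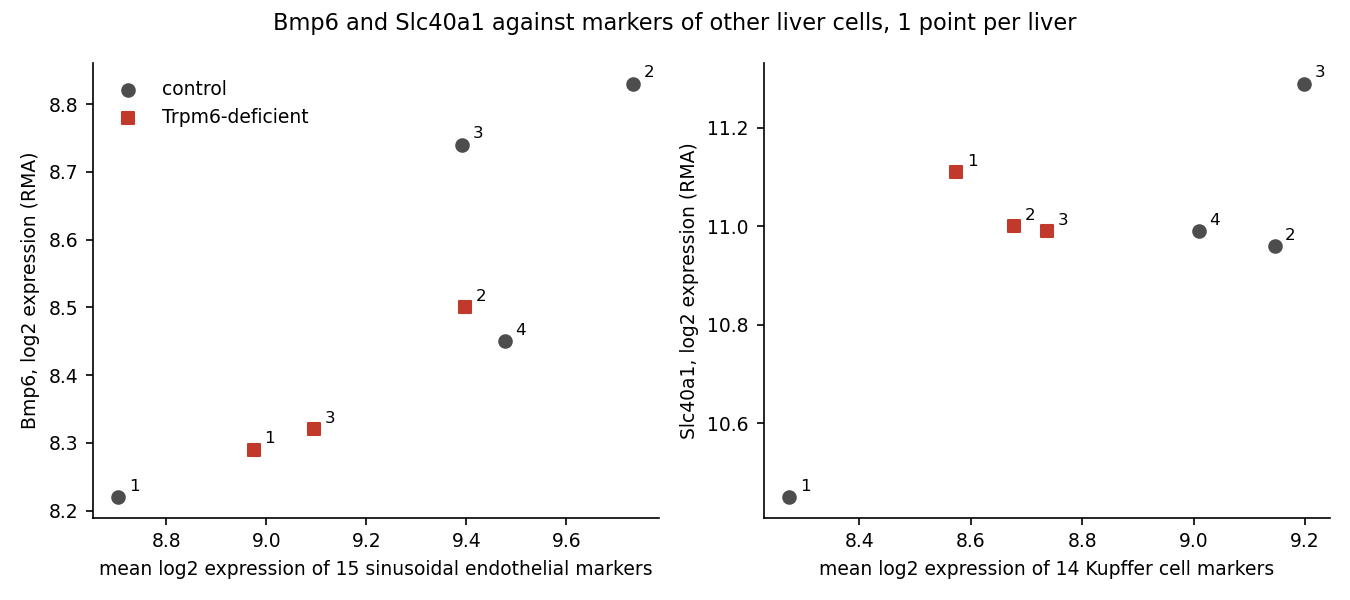
Log2 expression of Bmp6 against the mean log2 level of 15 sinusoidal endothelial markers (left) and of Slc40a1 against that of 14 Kupffer cell markers (right), with 1 point per liver numbered by replicate. Control 1 is lowest on both axes of both panels, and on the left Bmp6 is higher in livers with a higher marker mean.

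The genes most like Hamp and Hamp2 over the 7 arrays were named as a description, by Pearson correlation among probe sets with 1 symbol and a mean log2 value of 5 or more. For Hamp these were Grhl3, Apoc1, Psmb3, Fsip2 and Cdh4, with r from 0.959 to 0.970, and with r from 0.898 to 0.981 after each group's mean was removed. For Hamp2 they were Gstt3, Ndufaf5, Vldlr, Cbr1 and Tmem53, with r from 0.982 to 0.997, and with r from 0.785 to 0.951 within groups. For Alas2, added after its values were seen, they were Epb41l4b, C8b, Ube4b, Susd4 and Serpina12, with r from 0.988 to 0.991, and from 0.918 to 0.934 within groups. No p is given, since the ranking itself chose these genes, and no gene stands in more than 1 of the lists.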

How the data were processed

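Liver RNA (100 ng total RNA per mouse) was hybridised to Affymetrix Mouse Gene 1.0 ST arrays. The authors corrected the background, normalized and summarised the probes by RMA in Affymetrix Expression Console 1.4.0 (per the labels' processing notes) and deposited log2 values, which were used as deposited. RMA draws the arrays to a common distribution, so a shift shared by most genes would not be seen. No array depth applies, and precision rests on how many arrays there are.

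All 35556 probe sets were fitted with limma 3.58.1 (R 4.3.3; lmFit and eBayes, no covariate, 5 residual degrees of freedom before moderation), and p-values were adjusted after Benjamini and Hochberg across all of them (FDR), with a threshold of 0.1. The script was tested on simulated data with 200 changed genes. Gene symbols were taken from annotation of the platform, with 21789 probe sets of 1 symbol, 1621 of several and 12146 of none. A gene with several probe sets is given by the brightest one, and the globin copies by a probe set they share. Among the listed genes, the second probe sets of Clec4g, Steap2 and Nfu1 had the opposite sign of the first. Hbb-bs and Hbb-bt were added to the erythroid list after the annotation was seen. Bmp2 stands in the BMP and the endothelial list.

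The 10 genes, the lists and the tests were chosen with earlier results of these data known. The named genes are the 10, fixed genes of known role, and at most 6 per list with a nominal p of 0.05 or less. Correlations were tested by exact permutation in Python 3.11.15, with ranks from SciPy 1.17.1, and the Hamp2 minus Hamp difference by enumeration in R. Promoters were aligned with Biopython 1.88, and figures were drawn with matplotlib 3.10.9. Alternatives were age as a covariate, a replicate block, each liver left out, a filter at a mean log2 value of 5, a second quantile normalization, median centring, eBayes with trend and robust settings, array weights, an unmoderated t statistic, an FDR of 0.05 or less, and, added after seeing the data, control 1 and Trpm6-deficient 1 left out together. The replicate block left out control 4, which has no same-numbered Trpm6-deficient mouse. It therefore held the same livers, and gave the same log2 changes, as the fit without control 4.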

Additional observations from a re-analysis of the deposited data

Results flagged for a closer look

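In 4 of 53 control groups tested, 1 liver stood apart from the other controls, by a gap divided by the range above Dixon's 95% critical value for 4 samples, and chance flags about 1 group in 20. Clec4g, an endothelial lectin, was at 10.56 in control 1 and 11.94 to 12.08 in the other controls (0.908 of the range). Fth1, the ferritin heavy chain, was at 13.96 in control 1 and 13.88 to 13.89 in the others (0.875). Abcb10 was at 8.78 in control 1 and 8.68 to 8.69 in the others (0.90). Egln1 was at 8.38 in control 2 and 8.60 to 8.61 in the others (0.957). None of the 10 iron genes was among them.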

How the results depend on the processing

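The call of Hamp2 depended on the setting. The number of the 10 genes called was 0 with age as a covariate, with the replicate block, without moderation of the variances (an unmoderated t statistic), at an FDR of 0.05 or less, and without control 1 and Trpm6-deficient 1 together (added after seeing the data), and 0 to 2 when 1 liver was left out, against 1 as reported. The log2 change of Hamp2 was 2.12 with age as a covariate (FDR = 0.169), 2.18 with the replicate block (FDR = 0.388), 2.11 without moderation (FDR = 0.315) and 2.28 without that pair (FDR = 0.135), and 1.90 to 2.35 when 1 liver was left out. It passed in 6 of 16 alternatives and had a nominal p of 0.05 or less in all 16. Hamp passed in none and Alas2 in 1. Without moderation 8 probe sets had an FDR of 0.1 or less and 1863 a nominal p of 0.05 or less, where limma gave 46 and 2444. Over all probe sets 1 to 70 passed in these alternatives.

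The Hamp2 minus Hamp difference was 1.58 with age as a stratum (exact permutation p = 0.0556) and 1.41 to 1.76 when 1 liver was left out (exact permutation p = 0.0667 to 0.10, the smallest those designs allow). The sign turned, or the change was 0, for Slc40a1 without control 1 (-0.0467, with a highest value of 0.2333 when 1 liver was left out) and without that pair (-0.085), and for Tmprss6 with the replicate block (0), without control 3 (-0.02), without control 4 (0), without Trpm6-deficient 1 (-0.125), with array weights (-0.0038) and without that pair (-0.0667), with a highest value of 0.09 when 1 liver was left out. For Tfrc the change was 0 without control 2. The wider lists had 12 to 17 genes at a nominal p of 0.05 or less when 1 liver was left out and 15 without moderation, against 18. The cell type lists had 3, which became 1 to 17 when 1 liver was left out, the highest without control 1, and 14 without that pair (12 lower). The cause was not tested. Scara5 passed when dim probe sets were left out.

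The deviations of same-numbered mice correlated at r = 0.335, 0.260 and 0.0878. The same-numbered control was the best match for Trpm6-deficient 1 and Trpm6-deficient 2, while Trpm6-deficient 3 correlated best with control 4 (0.226). The labels do not name pairs, and the numbers were not read as pairs in the main fit. Whether same-numbered mice shared their handling was not tested. The replicate block, which left out control 4, changed no other call among the 10 genes, and left 1 probe set on the array past the threshold. With 7 livers, the interval of Tfrc still holds a change of -1.06 on the log2 scale.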
